A study of Mus musculus with 6 samples.

Results

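The T cell receptor alpha and beta V segments are the genes that supply the front of the variable domain of each receptor chain. All genes of the count table with a symbol starting in Trav or Trbv were taken, pseudogenes were left out, and a segment had to have at least 10 counts summed over the 6 libraries. This gave 118 segments of the 52856 rows of the table. Of these, 98 were alpha segments (Trav) and 20 were beta segments (Trbv). The rule for members used name and depth, not any difference between the groups, but it was set with earlier results of these data known.

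The cells were splenic CD4+ T cells of C57BL/6 mice aged 8 weeks, stimulated for 48 hours with antibodies to CD3 and CD28. The 3 KO libraries came from miPEP31-/- mice and the 3 WT libraries from wild-type mice. The labels give neither the structure of the miPEP31 allele, nor how the CD4+ cells were isolated, nor whether the libraries came from separate mice, so p-values measure only the spread between these libraries. Cells were kept in 1640 medium with 10% serum, Trizol was used for the RNA and a TruSeq kit for the libraries.

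In each developing T cell, recombination joins a V segment to downstream segments of the same locus, a beta chain first and an alpha chain later, and the joined V exon is then transcribed together with the constant gene (Trac for alpha, Trbc1 or Trbc2 for beta). Reads on V segments in a population of mature cells therefore largely report which segments its cells had rearranged. The alpha locus can rearrange again on the same chromosome, with V segments close to the J segments joined before those far upstream. In C57BL/6 mice the alpha V region holds duplicated blocks whose segments carry d or n in their names, and segments with dv in their names can be joined in alpha or delta chains.

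The alpha segments lay on chromosome 14 between 52427928 and 53977678 (GRCm38, GENCODE M21, the span of all 108 annotated Trav genes in the table), all on the plus strand, in 19 subgroups. They comprised 31 d copies, 25 n copies and 42 segments without either mark, and 9 had dv in their names. The beta segments lay on chromosome 6 between 40891229 and 41558452 in 18 subgroups. Of these 20, 19 were on the plus strand and Trbv31 was on the minus strand. A V segment ends a few bases after the codon of a conserved cysteine, where the joined part of the receptor (CDR3) begins. The last 60 bases of the coding part are shown for the 4 beta segments whose use differed between the groups and for the 3 alpha segments with the smallest p for use, 5′ to 3′, from the GENCODE M21 transcripts on GRCm38, with capitals from the cysteine codon onwards.
Trbv1: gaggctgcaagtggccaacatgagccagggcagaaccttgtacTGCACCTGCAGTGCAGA
Trbv13-1: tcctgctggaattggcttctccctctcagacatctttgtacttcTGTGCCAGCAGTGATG
Trbv2: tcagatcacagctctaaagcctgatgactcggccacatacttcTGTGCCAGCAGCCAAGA
Trbv31: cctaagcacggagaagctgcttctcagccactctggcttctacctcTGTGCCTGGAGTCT
Trav13-4-dv7: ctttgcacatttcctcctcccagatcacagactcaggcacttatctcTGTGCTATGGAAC
Trav19: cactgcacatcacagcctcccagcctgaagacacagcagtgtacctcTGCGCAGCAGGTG
Trav21-dv12: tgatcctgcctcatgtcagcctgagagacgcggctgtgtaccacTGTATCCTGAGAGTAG

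No 2 of the 7 segments have the same bases all the way from the cysteine codon to the end. Trbv13-1 and Trbv2 share the first bases after that codon. Many alpha segments have near or exact copies. Compared position by position from the start codon without gaps, 62 of the 98 alpha segments had at most 10 mismatches to another member, and 30 had 0. Trav13-4-dv7, shown above, had 11 mismatches to its nearest member, Trav13d-2. A shift between 2 sequences makes copies count as unlike here, so these counts can miss copies. Trav6d-7 and Trav6n-7, which share an annotated transcript sequence, had 61 and 219 mismatches to their nearest members. Among the 20 beta segments the closest pair by this comparison, Trbv12-1 and Trbv12-2, had 44 mismatches. Related beta segments can be missed in the same way. Trbv13-1 and Trbv13-3, of the same subgroup, had Trbv31 and Trbv5 as nearest members, at 209 and 193 mismatches. The next pairs show an exact copy, a copy over all compared bases, and a copy with 1 difference, with capitals at the base that differs (bases 305 to 364, 277 to 336 and 160 to 219 from the start codon).
Trav14d-2: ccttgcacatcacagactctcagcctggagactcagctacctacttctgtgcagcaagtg
Trav14n-2: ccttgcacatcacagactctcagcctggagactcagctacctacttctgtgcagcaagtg
Trav7-2: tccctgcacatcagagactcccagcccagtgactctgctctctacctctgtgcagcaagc
Trav7d-2: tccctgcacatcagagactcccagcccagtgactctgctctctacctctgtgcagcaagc
Trav13d-1: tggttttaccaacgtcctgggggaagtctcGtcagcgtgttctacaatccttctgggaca
Trav13n-1: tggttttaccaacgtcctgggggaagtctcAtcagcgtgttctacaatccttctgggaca

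Library totals ranged from 22865450 to 26295735 counts. Of these, only 1156, 1471 and 1307 counts fell on the alpha members in the KO libraries and 1765, 1839 and 1586 in the WT libraries. The beta members held 1877, 1745 and 1463 counts in the KO libraries and 1816, 1886 and 1652 in the WT libraries. The median member had 67 counts over all 6 libraries at the alpha locus and 341 at the beta locus, so small changes of single alpha segments were not detectable at this depth. After the low-count filter used for testing, 55 alpha and 19 beta segments remained, holding 85.8% and 99.8% of the members' counts. Defining T cell markers were present. Cd3e, a CD3 chain of the receptor complex, had 141, 155 and 159 CPM (counts scaled to library size with TMM) in the KO libraries and 178, 179 and 175 CPM in the WT libraries, and Cd4 had 295.0, 310.5 and 300.4 CPM in the KO libraries and 497, 449 and 421 CPM in the WT libraries. Of the 7 T cell identity genes 5 fell and 1 rose, where 22.2% of all rows tested were called lower and 25.1% higher. Cd5, a surface regulator of receptor signalling and the most abundant of the 7 in the KO, was the gene that rose. Its mean was 621 CPM in the KO, against 374 CPM in WT. Lck, the receptor-proximal kinase, had means of 427 CPM in the KO and 435 CPM in WT. Markers of other lymphocytes were also present. The 6 B cell markers summed to 209 to 483 CPM in the KO libraries and 164.9 to 229.5 CPM in the WT libraries, with Ighm and Igkc, an immunoglobulin heavy and light chain gene, the most abundant. The 2 CD8 T cell markers Cd8a and Cd8b1 summed to 15.9, 27.9 and 36.9 CPM in the KO libraries and 15.8, 12.7 and 12.5 CPM in the WT libraries. The macrophage marker Adgre1 was at 0 in all 6 libraries. The part of these cells in the results below was not tested.

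Use of a segment is given as its share of all member counts of its locus in a library, so that a change of the whole locus does not enter. At the beta locus the use of 4 segments differed between the groups: Trbv1 and Trbv13-1 rose in the KO and Trbv2 and Trbv31 fell (edgeR quasi-likelihood test with the locus total as offset, adjusted p under 0.05 over all 14387 rows tested). Thus 2 of the 19 tested beta segments rose and 2 fell, where 25.1% of all rows tested were called higher and 22.2% lower in the same fit. In this fit only V segments were scaled to their locus total and every other row to library size. The values over all rows tested are therefore almost entirely changes of level, not of use. The median log2 fold change of use was -0.04 over the 19 beta segments, against 0.01 over all rows tested. Shares of a locus add up to a fixed total, so a median near 0 says little here.

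Trbv1 lies at the 5′ end of the beta locus (chromosome 6, 40891229 to 40891885, plus strand), apart from most of the other beta V segments. It made up 14.6%, 15.6% and 18.1% of beta V counts in the KO libraries and 11.6%, 11.1% and 11.9% in the WT libraries. All 3 KO libraries were above all 3 WT libraries, with KO replicate 3 highest. The log2 fold change of use was 0.48 ± 0.12 (SE, n = 3 each, edgeR adjusted p = 0.0123). Over 12 alternatives the rise ranged from 0.39 to 0.56, and the call was lost in 1 of them, without WT replicate 2 (adjusted p = 0.0518).

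Trbv31 lies at the other end (chromosome 6, 41557691 to 41558452, minus strand), downstream of the constant genes, and is joined by inversion rather than by deletion. It made up 8.79%, 8.25% and 6.56% of beta V counts in the KO libraries and 12.0%, 11.1% and 11.3% in the WT libraries. No KO library reached the lowest WT library, and KO replicate 3 was lowest. The log2 fold change of use was -0.54 ± 0.14 (SE, n = 3 each, edgeR adjusted p = 0.0163). The call was lost in 2 of 12 alternatives, with the constant genes as the denominator (adjusted p = 0.0713) and without WT replicate 1 (adjusted p = 0.0618).

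Trbv2 (chromosome 6, 41047340 to 41047995, plus strand) had the largest share of counts in each WT library. It made up 12.4%, 13.5% and 14.1% of beta V counts in the KO libraries and 16.6%, 16.2% and 17.6% in the WT libraries, again without overlap. The log2 fold change of use was -0.33 ± 0.105 (SE, n = 3 each, edgeR adjusted p = 0.0321). The call held in 4 of 12 alternatives; it was lost without the low-count filter, with the constant genes as the denominator, with the replicate block, and without KO replicate 1, KO replicate 2 or any 1 WT library (adjusted p up to 0.106).

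Trbv13-1 (chromosome 6, 41116007 to 41116468, plus strand) belongs to the subgroup long known as Vbeta8. It made up 5.97%, 6.53% and 4.99% of beta V counts in the KO libraries and 4.30%, 4.14% and 3.57% in the WT libraries. The groups did not overlap, with KO replicate 3 nearest to the WT libraries. The log2 fold change of use was 0.54 ± 0.18 (SE, n = 3 each, edgeR adjusted p = 0.0365), and 0.54 ± 0.16 for Trbv13-1 and Trbv13-3 summed (adjusted p = 0.0249). The call for Trbv13-1 held in 5 of 12 alternatives; it was lost without the low-count filter, with the replicate block, and without KO replicate 1, KO replicate 2 or any 1 WT library (adjusted p up to 0.126).

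**Figure D1:**
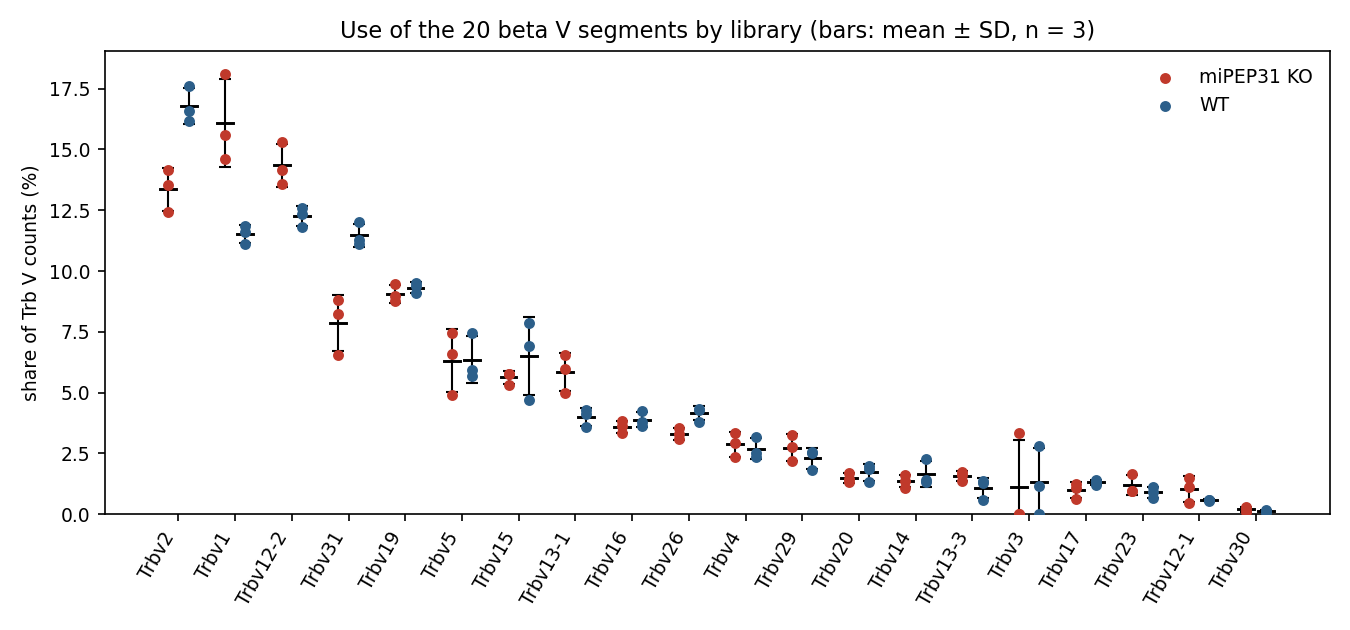
Share of beta V counts (percent, y axis) of each of the 20 beta segments (x axis, by mean share), with 1 point per library, miPEP31 KO in red and WT in blue; lines and bars give the mean and SD of 3 libraries. The KO points of Trbv1 (14.6% to 18.1%) and Trbv13-1 lie above their WT points, and those of Trbv2 and Trbv31 (6.56% to 8.79%) below.

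The other abundant beta segments did not pass the test. Trbv12-2 made up 13.6%, 14.2% and 15.3% of beta V counts in the KO libraries and 12.6%, 11.8% and 12.3% in the WT libraries, for a log2 fold change of use of 0.23 ± 0.11 (SE, adjusted p = 0.119 by edgeR). Trbv26 did not overlap either, at 3.30%, 3.55% and 3.08% in the KO libraries and 4.30%, 4.35% and 3.81% in the WT libraries (log2 fold change -0.33 ± 0.18, SE, edgeR adjusted p = 0.168). Shares of 6 of the 20 beta segments did not overlap between the groups, 3 higher and 3 lower in the KO. On the CPM scale, groups did not overlap for 59.1% of all rows tested, a set without low-count rows. Trbv19, at a mean of 9.07% in the KO and 9.32% in WT, had a log2 fold change of use of -0.04 ± 0.12 (SE). Trbv5 had means of 6.31% in the KO and 6.36% in WT, and Trbv15 had 5.62% in the KO and 6.51% in WT, with overlapping groups for both.

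Per length of the annotated exons, the order of the beta segments was led by Trbv12-2, at a mean of 14.45% of length-scaled counts over the 6 libraries, followed by Trbv1 at 13.85%, Trbv2 at 11.3% and Trbv31 at 9.69%. This order differed between the groups. Trbv1 took 14.57%, 15.47% and 18.1% in the KO libraries and 11.72%, 11.25% and 12.0% in the WT libraries. Trbv12-2 took 14.69%, 15.22% and 16.57% in the KO libraries and 13.78%, 12.94% and 13.53% in the WT libraries. In each WT library Trbv1 was also below Trbv2. The 8 segments with the highest mean share held 78.4% of beta V counts on average. Trbv30 was the least abundant member, with 6, 2 and 3 counts in the KO libraries and 2, 2 and 3 in the WT libraries. Trbv3 had 63, 0 and 0 counts in the KO libraries and 21, 53 and 0 in the WT libraries. It was thus listed at 0 in 3 libraries and well above 0 in the others, and its fold change is not interpretable.

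Only 2 annotated beta V genes other than pseudogenes fell below 10 counts. One was Trbv13-2, the best known member of the Vbeta8 subgroup, which was named here after its values were seen. The deposited table gave it 2.85, 0 and 0 estimated counts in the KO libraries and 2.44, 2.66 and 0 in the WT libraries, in contrast to the 73 to 114 counts of Trbv13-1 in the KO libraries and 59 to 78 in the WT libraries. The cause was not tested. All beta shares are therefore shares of a total that holds almost no Trbv13-2 counts, whether or not its reads were lost. The other was Trbv21, with 3 counts in KO replicate 1 and 0 elsewhere.

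On the scale of the whole transcriptome (level, in CPM), the alpha locus was lower in the KO. The alpha members summed to 49.8, 54.7 and 56.2 CPM in the KO libraries and 76.4, 77.6 and 69.0 CPM in the WT libraries. The groups did not overlap, and the ratio of the means was 0.721 (two-sided exact permutation test, p = 0.1, the smallest that 3 against 3 libraries allow). In these bulk samples fewer cells of a type and less RNA per cell cannot be told apart. Trac, the alpha constant gene, had 162, 166 and 170 CPM in the KO libraries and 242, 243 and 237 CPM in the WT libraries, so that its log2 fold change was -0.53 ± 0.05 (SE, adjusted p = 1.7e-04 by edgeR).

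The beta members summed to 80.9, 64.9 and 62.9 CPM in the KO libraries and 78.6, 79.6 and 71.85 CPM in the WT libraries. KO replicate 1 was above all WT libraries and the other 2 KO libraries below them (two-sided exact permutation test, p = 0.4). Trbc1 fell in the KO by 0.25 ± 0.06 on the log2 scale (SE, edgeR adjusted p = 0.00977) and Trbc2 by 0.22 ± 0.07 (SE, edgeR adjusted p = 0.0328). The Trbc2 call was lost with plain library totals, with the replicate block, and without KO replicate 2 or any 1 WT library (adjusted p up to 0.107). The ratio of alpha to beta V counts was 0.616, 0.843 and 0.893 in the KO libraries and 0.972, 0.975 and 0.960 in the WT libraries, without overlap and with KO replicate 1 lowest (exact permutation test, p = 0.1).

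**Figure D2:**
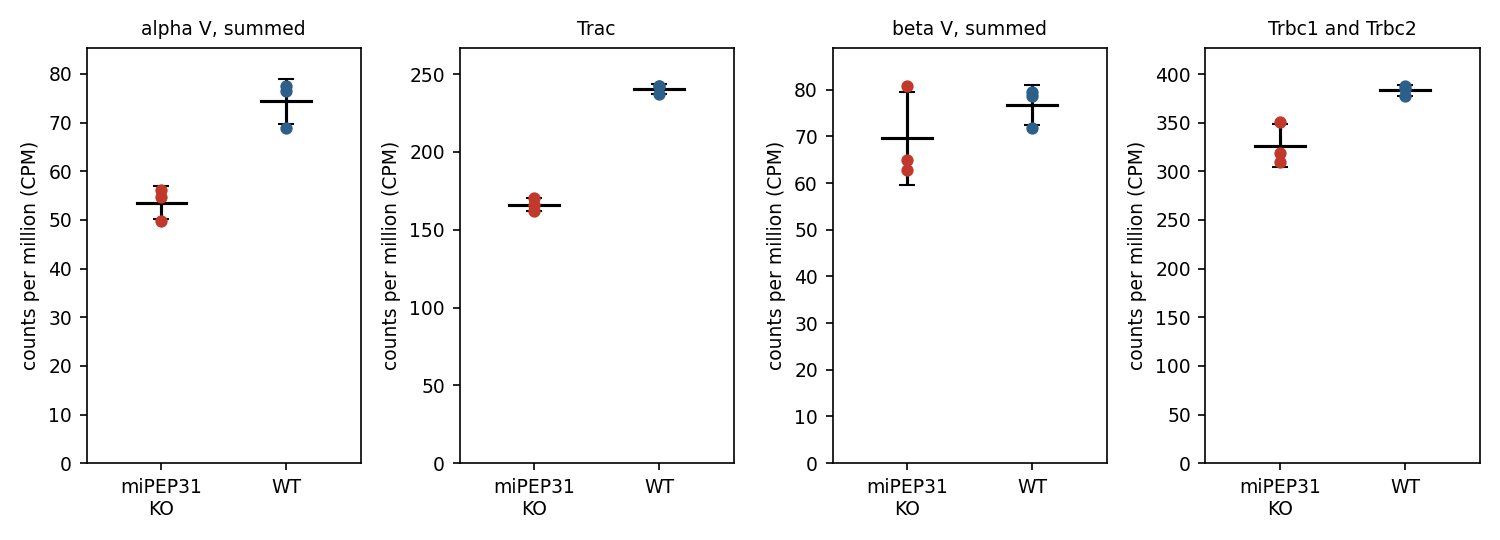
Level in CPM (y axis, from 0) of the summed alpha V segments, Trac, the summed beta V segments, and Trbc1 plus Trbc2, with 1 point per library, KO left in red and WT right in blue; lines and bars give the mean and SD of 3 libraries. The alpha panels show the KO libraries (49.8 to 56.2 CPM for alpha V) below all WT libraries, while the beta V panel shows 1 KO library at 80.9 CPM above them.

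Set against the constant gene of the same chain, neither locus differed beyond the spread. The alpha V counts per 100 Trac counts were 30.7, 33.0 and 33.0 in the KO libraries and 31.5, 32.0 and 29.1 in the WT libraries (exact permutation test, p = 0.3). The beta V counts per 100 counts of Trbc1 and Trbc2 were 23.03, 20.94 and 19.74 in the KO libraries and 20.84, 20.50 and 18.70 in the WT libraries (exact permutation test, p = 0.4). A p that misses the threshold does not show that these ratios are alike.

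By level, 1 of the 74 tested segments was called higher in the KO (Trbv1) and 8 lower, where 25.1% of all rows tested were higher and 22.2% lower. The median log2 fold change of level was -0.44 over the 55 alpha segments and -0.18 over the 19 beta segments, against 0.01 over all rows tested. Of the 55 alpha segments, 47 had a negative log2 fold change and 6 passed the test. On the CPM scale the groups did not overlap for 23 of the 98 alpha segments, all lower in the KO, and for 5 of the 20 beta segments, 1 higher and 4 lower, counting both segments of an identical pair. The 98 and 20 include segments below the low-count filter, which the rows tested leave out. Over all rows tested the groups did not overlap for 59.1%, 28.4% of the rows being lower in the KO. The log2 fold change of level was 0.33 ± 0.11 for Trbv1 (SE, edgeR adjusted p = 0.0411), -0.48 ± 0.10 for Trbv2 (adjusted p = 0.00665) and -0.67 ± 0.20 for Trbv31 (adjusted p = 0.0243). Trbv13-1 was not called by level (0.40 ± 0.22, SE, adjusted p = 0.159), nor in any of the 15 alternatives. The Trbv2 call held in all 15. The Trbv1 call held in 6 of 15 and was lost, among others, without any 1 library other than KO replicate 2 (adjusted p up to 0.121), and the Trbv31 call held in 12 and was lost without KO replicate 2, WT replicate 1 or WT replicate 2 (adjusted p up to 0.0823).

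The alpha segment with the clearest fall in level was Trav6-7-dv9 (chromosome 14, 53709902 to 53710419), one of the segments that can also be joined in delta chains. It had 43, 44 and 41 counts in the KO libraries and 88, 75 and 67 in the WT libraries, or 1.85, 1.64 and 1.76 CPM in the KO and 3.81, 3.17 and 2.91 CPM in WT. The log2 fold change of level was -0.91 ± 0.20 (SE, n = 3 each, edgeR adjusted p = 0.00669), and the call held in all 15 alternatives. By use, it made up 3.72%, 2.99% and 3.14% of alpha V counts in the KO libraries and 4.99%, 4.08% and 4.22% in the WT libraries (log2 fold change -0.44 ± 0.20, SE, edgeR adjusted p = 0.107).

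The other 5 alpha segments called lower by level were Trav14-2, the identical pair Trav14d-2 and Trav14n-2, and the identical pair Trav12d-2 and Trav12n-2. Trav14-2 had 21, 24 and 16 counts in the KO libraries and 35, 28 and 41 in the WT libraries. Each segment of an identical pair had the same count in every library, Trav14d-2 with 16, 20 and 19 in the KO and 32, 40 and 23 in WT, so each pair counts once and the calls lower come to 6 with pairs summed. With log2 fold changes from -0.89 for Trav12d-2 to -0.84 for Trav14-2, these calls were weak. All 5 were lost without the low-count filter, with the DESeq2 Wald test and with the replicate block (adjusted p from 0.0695 to 0.098). The Trav12 pair was lost without any 1 library, Trav14-2 without any other than WT replicate 2 and the Trav14 pair without any other than WT replicate 3 (adjusted p up to 0.174), and the Trav14 pair also with plain library totals and with limma-voom.

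The use of alpha segments showed 0 calls in either direction among the 55 tested (edgeR, adjusted p under 0.05). At an unadjusted p under 0.05, 2 were higher and 0 lower by edgeR, and 3 were higher and 0 lower by limma-voom, which also called 0. The 3 with the smallest p were all higher in the KO. Trav13-4-dv7 (chromosome 14, 53757356 to 53757921) made up 3.81%, 3.13% and 3.29% of alpha V counts in the KO libraries and 2.10%, 2.83% and 1.70% in the WT libraries (log2 fold change 0.615 ± 0.258, SE, edgeR adjusted p = 0.0819). Trav21-dv12 (chromosome 14, 53875984 to 53876752) made up 1.12%, 1.56% and 0.995% in the KO libraries and 0.737%, 0.761% and 0.631% in the WT libraries (0.79 ± 0.34, SE, adjusted p = 0.0844). Trav19 (chromosome 14, 53845234 to 53845827), the only member of its subgroup, made up 1.56%, 1.43% and 1.22% in the KO libraries and 0.850%, 0.761% and 1.01% in the WT libraries (0.68 ± 0.30, SE, adjusted p = 0.0959). These shares rest on 10 to 52 counts a library and none of the 3 passed the test.

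Summed over subgroups, which joins near copies, the most abundant were Trav6 with a mean share of 18.1% in the KO and 19.0% in WT, Trav14 with 13.9% in the KO and 15.6% in WT, and Trav7 with 12.1% in the KO and 12.0% in WT. No alpha subgroup passed the test by use. Trav16 had the smallest p, with shares of 2.77%, 3.47% and 3.21% in the KO libraries and 1.59%, 2.18% and 2.46% in the WT libraries (log2 fold change 0.61 ± 0.25, SE, edgeR adjusted p = 0.0809). Trav14 also did not overlap, at 13.1% to 14.6% in the KO libraries and 15.0% to 16.0% in the WT libraries (-0.17 ± 0.11, SE, edgeR adjusted p = 0.23).

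**Figure D3:**
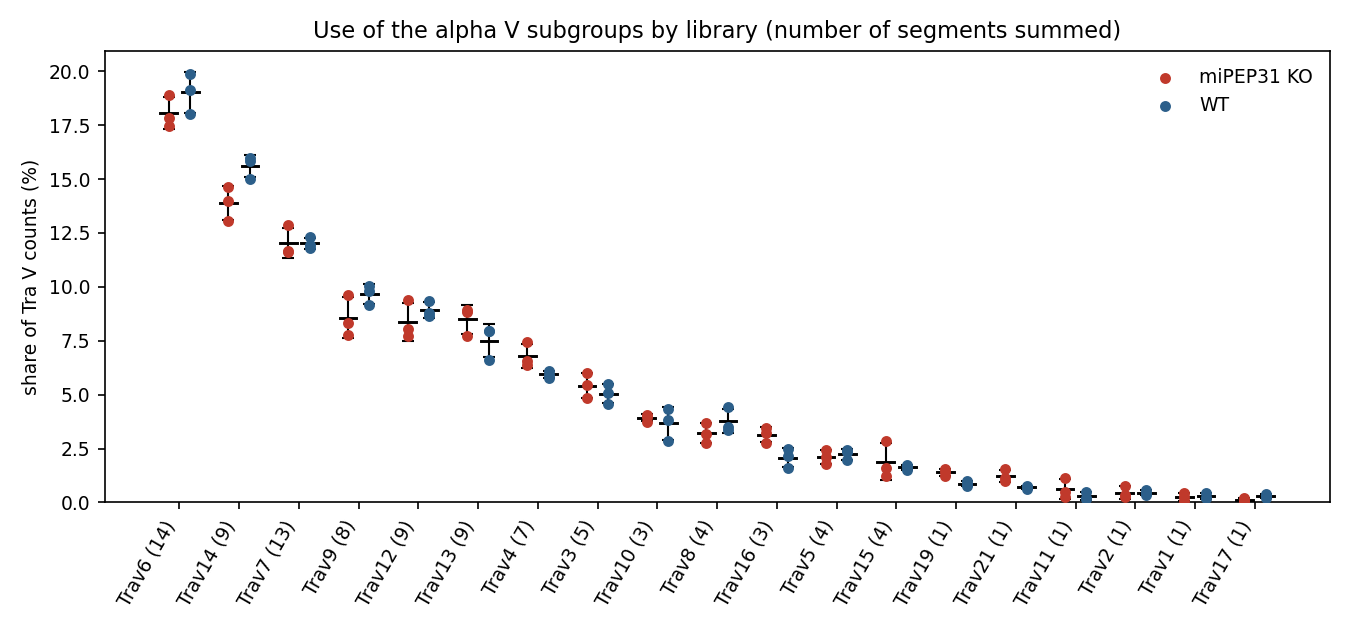
Share of alpha V counts (percent, y axis) of each of the 19 alpha subgroups (x axis, with the number of segments summed), with 1 point per library, miPEP31 KO in red and WT in blue; lines and bars give the mean and SD of 3 libraries. Trav6 is highest at 18.1% in the KO and 19.0% in WT, and the groups lie close together for most subgroups.

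Among single alpha segments no one segment dominated. Per length, Trav4-3 led with a mean of 4.33% of length-scaled counts over the 6 libraries, followed by Trav6n-6 at 4.10% and Trav6-7-dv9 at 4.08%, which lie within the spread of one another. The order differed between the groups. Per length, Trav4-3 took 4.82%, 4.67% and 5.15% in the KO libraries and 3.48%, 4.35% and 3.51% in the WT libraries. Trav6-7-dv9 took 3.945%, 3.18% and 3.32% in the KO libraries and 5.27%, 4.32% and 4.47% in the WT libraries. Trav4-3 made up 4.93%, 4.76% and 5.28% of alpha V counts in the KO libraries and 3.57%, 4.46% and 3.59% in the WT libraries (log2 fold change of use 0.36 ± 0.19, SE, edgeR adjusted p = 0.143). Trav14d-3-dv8 averaged 3.97% ± 0.66 in the KO and 3.996% ± 0.267 in WT, Trav6n-6 averaged 3.84% ± 0.68 in the KO and 3.61% ± 0.52 in WT, and Trav7-4 averaged 3.64% ± 0.44 in the KO and 3.37% ± 0.49 in WT (SD, n = 3 each). Trav9n-4 averaged 3.19% ± 0.36 in the KO and 3.22% ± 0.78 in WT, and Trav13d-1 averaged 2.32% ± 0.25 in the KO and 2.24% ± 0.48 in WT (SD, n = 3 each). Groups overlapped for these 5 segments. Shares of 13 of the 98 alpha segments did not overlap, 7 higher and 6 lower in the KO, with the identical pair Trav12d-2 and Trav12n-2 counted as 2. On the CPM scale 59.1% of all rows tested, which leave out low-count segments, did not overlap.

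The alpha segments were also ordered by distance to Trac, a measure of how far upstream the joined V lies. The count-weighted mean distance of the used segment to the start of Trac was 880.7, 903.6 and 896.9 kb in the KO libraries and 913.7, 913.0 and 914.5 kb in the WT libraries. The difference was -19.99 kb, shorter in the KO, without overlap (two-sided exact permutation test, p = 0.1, the smallest possible). Counts of copies cannot be placed with certainty. In KO replicate 2, 40 counts were listed for Trav7d-2 at 1537 kb and 0 for its copy Trav7-2 at 829.9 kb. With d and n copies left out, which also leaves out those 40 counts, the difference was -20.75 kb. The 20 segments nearest to Trac, at 344.5 to 660.9 kb, took 31.7%, 32.2% and 29.2% of alpha V counts in the KO libraries and 27.9%, 26.9% and 27.3% in the WT libraries (exact permutation test, p = 0.1). Trav21-dv12, Trav19, Trav13-4-dv7 and Trav16 are among them, at 344.5, 375.3, 463.2 and 477.4 kb, as is Trav6-7-dv9 at 510.6 kb with a lower share in the KO.

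The other distance groups varied. The second nearest, at 666.5 to 874.6 kb, took 23.2% ± 2.7 in the KO and 24.7% ± 0.6 in WT (SD, n = 3 each). The third nearest took 19.3% ± 0.7 in the KO and 19.5% ± 0.2 in WT (SD, n = 3 each). Groups overlapped for both. The fourth of 5 groups of segments by distance, at 1129 to 1365 kb, took 14.1%, 13.7% and 13.5% in the KO libraries and 14.6%, 16.9% and 15.0% in the WT libraries, while the 20 farthest took 12.7% ± 1.6 in the KO and 12.9% ± 1.4 in WT (SD, n = 3 each). The share of the nearer of 2 equal parts of the segments was 1.97 percentage points higher in the KO with overlapping groups (exact permutation test, p = 0.4). J segments, the other side of the same joint, could not be followed, since all 76 J and D rows of both loci had 0 counts in the deposited table.

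**Figure D4:**
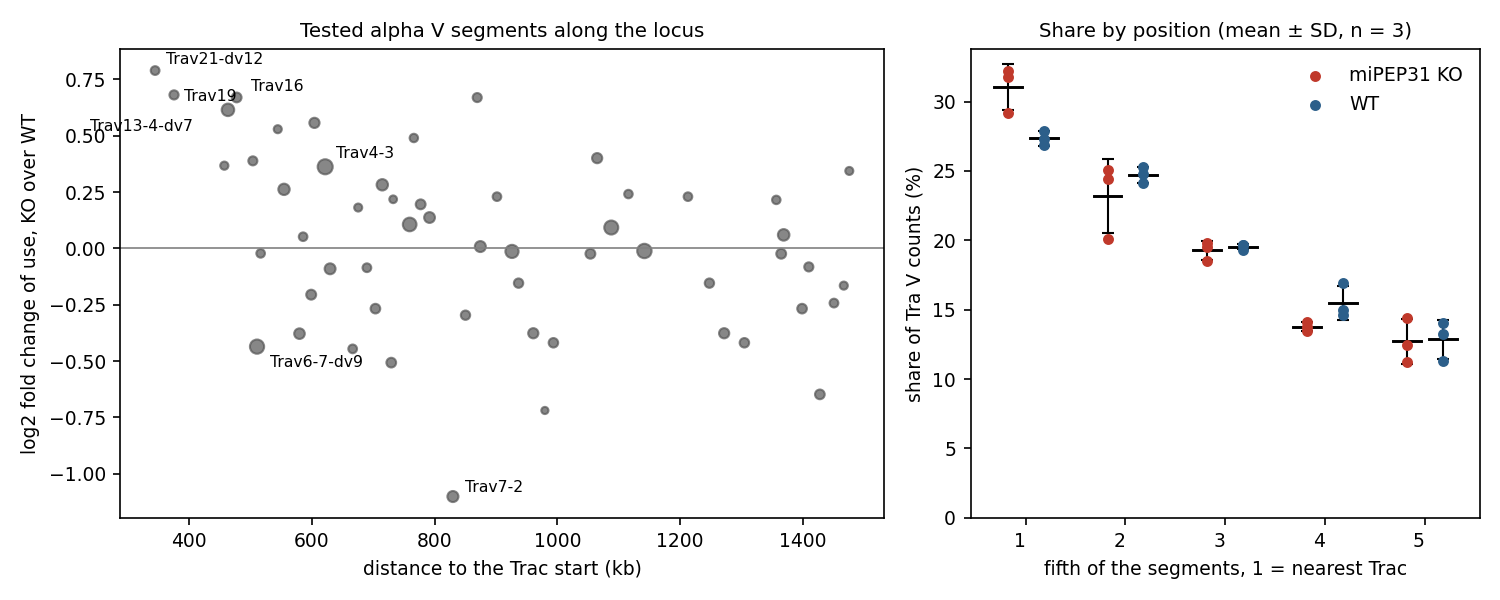
Left, log2 fold change of use in miPEP31 KO over WT (y axis) of the 55 tested alpha segments against their distance to the start of Trac in kb (x axis), with point area growing with mean share; right, share of alpha V counts (percent) of the segments in 5 groups by distance, 1 point per library with mean and SD, KO in red and WT in blue. The nearest group lies at 29.2% to 32.2% in the KO libraries and 26.9% to 27.9% in the WT libraries, and Trav21-dv12 is highest at 0.79 on the left.

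Evenness of use was measured as the effective number of segments, the number of equally used segments that would give the same Shannon entropy. At the alpha locus it was 62.8, 63.9 and 64.9 in the KO libraries and 67.2, 65.85 and 68.0 in the WT libraries (exact permutation test, p = 0.1, without overlap). The difference was -3.15 segments, and -3.26 with each library thinned to 1 fixed number of alpha V counts. With subgroups summed it was 0.65, higher in the KO, also at the smallest possible p (exact permutation test, p = 0.1). The direction thus depended on whether segments or subgroups were counted. At the beta locus it was 14.1, 13.0 and 12.3 in the KO libraries and 13.0, 13.9 and 12.4 in the WT libraries (exact permutation test, p = 1).

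As a description over whole repertoires, the share of beta V counts that would have to move to another segment to turn 1 library into another was 6.82% to 10.3% within the KO and 5.18% to 7.96% within WT. Between a KO and a WT library it was 10.04% to 14.95%. For alpha segments it was 14.6% to 17.5% within the KO, 13.2% to 16.0% within WT and 14.5% to 21.0% between the groups, so the alpha ranges overlapped and the beta ranges met only at their ends.

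Near copies differed in how counts were divided between them. Of 18 pairs of alpha V genes with the same annotated transcript sequence, 14 had both genes among the members, and 13 of these had equal estimated counts in every library within 0.02 counts. Trav7-2 and Trav7d-2, which match over all 336 compared bases shown in part above, had counts that alternated instead. Trav7-2 had 25, 0 and 23 counts in the KO libraries and 51, 53 and 38 in the WT libraries, while Trav7d-2 had 0, 40 and 0 in the KO libraries and 0 in all WT libraries. Summed, the pair made up 2.16%, 2.72% and 1.76% in the KO libraries and 2.89%, 2.88% and 2.40% in the WT libraries, with overlapping groups (exact permutation test, p = 0.2). The largest fitted change of use among alpha segments, that of Trav7-2 at -1.10 ± 0.76 (SE, edgeR adjusted p = 0.265), is therefore uncertain. Trav13d-1, which differs from Trav13n-1 at 1 base, had 24, 38 and 30 counts in the KO libraries and 43, 31 and 41 in WT, and Trav13n-1 had 3, 4 and 2 in the KO and 9, 7 and 4 in WT.

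The d copies together took 22.8% to 25.9% of alpha V counts in the KO libraries and 25.6% to 26.01% in the WT libraries, and the n copies 22.3% to 25.9% in the KO libraries and 23.2% to 25.1% in the WT libraries. Segments with dv in their names took 14.3%, 14.5% and 12.2% in the KO libraries and 13.9%, 13.4% and 12.1% in the WT libraries. Groups overlapped in all 3 classes. Of the V pseudogenes, 8 of 20 at the alpha locus had counts, summing to 19, 36 and 41 in the KO libraries and 71, 79 and 55 in the WT libraries. The ratio of mean counts, KO to WT, was 0.468, against 0.758 for the alpha members. A single pseudogene, Trav13-3, held most of these counts. It had 0.733, 1.04 and 1.375 CPM in the KO libraries and 2.68, 2.70 and 2.22 CPM in the WT libraries.

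The V segments of T cells with invariant alpha chains had few counts. Trav11, joined to Traj18 in invariant natural killer T cells, had 0 counts in all 6 libraries. Since reads of near copies may be assigned to one of them, this sets no limit for the segment. Its copy Trav11d had 3, 7 and 15 counts in the KO libraries and 3, 4 and 8 in the WT libraries, and Trav1, joined to Traj33 in mucosal-associated invariant T cells, had 5, 1 and 3 in the KO libraries and 8, 4 and 3 in the WT libraries. Traj18 and Traj33 were at 0, as were all J rows of the table, which says nothing of such cells. In all, 10 of the 108 annotated alpha V genes fell below 10 counts, and 4 of these (Trav11, Trav6d-3, Trav15n-1 and Trav23) were at 0 throughout. Of markers of natural killer T cells, Zbtb16, a transcription factor of such cells, had 2.20, 2.27 and 3.18 CPM in the KO libraries and 0.563, 1.39 and 1.17 CPM in the WT libraries (log2 fold change 1.28 ± 0.34, SE, edgeR adjusted p = 0.0161), whereas Cd160, a receptor on natural killer and other cytotoxic cells, was lower (-1.80 ± 0.27, SE, edgeR adjusted p = 0.00121).

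Of the gamma and delta chain genes looked at, Trdc, Tcrg-C2 and Tcrg-C1 rose in the KO. Trdc, the delta constant gene, had 16.9, 20.2 and 25.8 CPM in the KO libraries and 11.8, 15.3 and 13.0 CPM in the WT libraries (log2 fold change 0.65 ± 0.17, SE, edgeR adjusted p = 0.0135); without WT replicate 1 or WT replicate 3 the adjusted p was 0.0593 and 0.0528. Trdv4, a delta V segment, had 9, 18 and 26 counts in the KO libraries and 1, 0 and 1 in the WT libraries. Tcrg-C2, a gamma constant gene chosen after its values were seen, had 13.8, 13.7 and 15.4 CPM in the KO libraries and 7.75, 9.16 and 7.79 CPM in the WT libraries (0.80 ± 0.12, SE, edgeR adjusted p = 9.86e-04). Of the other gamma constant genes, Tcrg-C1 rose (0.95 ± 0.33, SE, edgeR adjusted p = 0.0448) and Tcrg-C4 did not pass (0.68 ± 0.25, SE, edgeR adjusted p = 0.0539), and the groups overlapped for both. Trdv5, another delta V segment, did not pass either (1.04 ± 0.43, SE, edgeR adjusted p = 0.0755). Sox13, a gamma-delta T cell transcription factor, did not pass (0.82 ± 0.38, SE, edgeR adjusted p = 0.107). Their part in the lower alpha level of the KO was not tested.

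Some markers of other cells differed between the groups and others did not. Cd8a, a chain of the CD8 coreceptor, had 7.20, 13.0 and 16.5 CPM in the KO libraries and 4.46, 2.66 and 2.74 CPM in the WT libraries (log2 fold change 1.89 ± 0.33, SE, edgeR adjusted p = 0.00232), and Cd8b1 did not pass (0.50 ± 0.27, SE, adjusted p = 0.158). Of the 6 B cell markers 4 rose and 0 fell (25.1% and 22.2% of all rows tested), with Igkc at 20.4, 33.5 and 53.2 CPM in the KO libraries and 12.3, 13.8 and 17.4 CPM in the WT libraries while Ighm, at 146, 196 and 347 CPM in the KO libraries and 136, 116 and 159 CPM in the WT libraries, did not pass (adjusted p = 0.0614 by edgeR). Of natural killer cell markers, Eomes, a transcription factor shared with cytotoxic T cells, rose by 1.54 ± 0.29 (SE, edgeR adjusted p = 0.00337), and Klrb1c, with 7, 14 and 2 counts in the KO libraries and 11, 28 and 5 in the WT libraries, did not pass (adjusted p = 0.285). Plasma cell genes summed to 6.29 to 21.6 CPM in the KO libraries and 24.5 to 40.7 CPM in the WT libraries, led by Ighg1, which fell by 1.44 ± 0.36 (SE, edgeR adjusted p = 0.0118), with Ighg2c next over all 6 libraries. Jchain, the joining chain of secreted antibodies, lay the other way, with 9, 28 and 54 counts in the KO libraries and 2, 1 and 1 in the WT libraries. The macrophage markers summed to 2.89 to 5.67 CPM in the KO libraries and 4.09 to 7.62 CPM in the WT libraries, with overlap. Nearly all of this was Cd68, while Lyz2 had 5, 7 and 10 counts in the KO libraries and 0, 0 and 1 in the WT libraries. The dendritic cell markers, led by Flt3 and Itgax, summed to 2.24 to 4.77 CPM in the KO libraries and 1.70 to 3.12 CPM in the WT libraries, also with overlap.

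Most genes of the receptor complex were also lower in the KO. Of 10 genes of the receptor, CD3 chains and coreceptors, 9 were tested, 8 fell and 0 rose, where 22.2% of all rows tested were called lower and 25.1% higher, with a median log2 fold change of -0.30, against 0.01 over all rows tested. Cd247, the zeta chain that carries the signal into the cell, fell by 0.47 ± 0.07 (SE, edgeR adjusted p = 7.93e-04), Cd3d by 0.30 ± 0.06 (adjusted p = 0.00377), Cd3g by 0.30 ± 0.06 (adjusted p = 0.00557) and Cd3e by 0.22 ± 0.06 (adjusted p = 0.0194). The Cd3e call was lost with plain library totals, with the replicate block and without any 1 WT library (adjusted p up to 0.0714). Cd4 fell by 0.59 ± 0.07 (SE, edgeR adjusted p = 4.02e-04), and Cd28, the costimulatory receptor, did not pass (-0.06 ± 0.13, SE, adjusted p = 0.72).

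Of 16 genes of V(D)J recombination and end joining, 14 were tested, 2 rose and 4 fell, where 25.1% of all rows tested were called higher and 22.2% lower. Their median log2 fold change was -0.12, against 0.01 over all rows tested. Dntt, the terminal transferase that adds bases at V(D)J joints, had 3, 5 and 10 counts in the KO libraries and 665, 795 and 546 in the WT libraries (log2 fold change -6.84 ± 0.29, SE, edgeR adjusted p = 3.63e-06). Rag2, a subunit of the recombinase, was at 0 in all 6 libraries, Rag1, the other subunit, had 0, 1 and 2 counts in the KO libraries and 4, 1 and 0 in the WT libraries, and Ptcra, the pre-receptor alpha chain of thymocytes, had at most 2 counts in any library. Cd1d1, listed with the thymocyte markers, rose by 0.95 ± 0.22 on the log2 scale (SE, edgeR adjusted p = 0.00849). Lig4 and Xrcc4, which together seal the joint, rose by 0.49 ± 0.11 and 0.33 ± 0.09 on the log2 scale (SE, edgeR adjusted p = 0.00744 and 0.0167). Prkdc, the kinase that brings broken ends together, fell by 0.33 ± 0.07 (SE, edgeR adjusted p = 0.00537), as did Hmgb1, a DNA-bending cofactor of the recombinase, by 0.30 ± 0.10 (adjusted p = 0.0413), and Kmt2d, a histone methyltransferase, by 0.31 ± 0.06 (adjusted p = 0.00292).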

How the data were processed

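The authors deposited estimated counts per gene, whole in 72.2% of the values above 0. Bowtie 0.12.2 and the build mm8 appear in the submitters' processing notes with no step; for the counter and its strand setting, the sources used here give nothing. Counts were rounded, and 944 rows without a gene name (0.903% to 1.56% of counts) stayed in totals. Symbols, coordinates and sequences are from GENCODE M21 (GRCm38), matched by gene ID. Trbv4 and Trbv5 overlap a noncoding gene on the same strand, so their reads cannot be told apart from it. The whole table was fitted in R 4.3.3 with edgeR 4.0.16 (filterByExpr, TMM, robust quasi-likelihood, no covariate, Benjamini-Hochberg over 14387 rows, threshold 0.05); for use, the offset of a V row was its locus V total. Alternatives used limma 3.58.1 and DESeq2 1.42.0. The fits were tested on simulated data. Single values were compared by two-sided exact permutation tests in scipy 1.17.1.

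The named segments were the 8 of each locus with the highest mean share, up to 6 rises and 6 falls by use, or the 3 with the smallest p where fewer than 3 passed. Receptor, recombination and invariant-chain genes and the 2 most abundant markers of other cells were added. The members and lists were chosen with earlier results of these data known. The planned mean J segment number could not be computed. A table of 30 centred genes was not used. The gamma constant gene symbols of the marker list do not occur in the table, so Tcrg-C1, Tcrg-C2 and Tcrg-C4 were looked up after values were seen.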

Additional observations from a re-analysis of the deposited data

How the results depend on the processing

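Counts of called V segments moved with several choices. By level, 1 higher and 8 lower became 0 and 3 without the low-count filter, 0 and 3 with the DESeq2 Wald test, and 0 higher with upper-quartile scaling; by use, 2 higher and 2 lower became 1 and 1 without the filter, and 0 lower with the constant genes as the denominator. With the replicate block the counts were 0 higher and 3 lower by level and 1 and 1 by use. Deviations of same-numbered libraries from their group means had correlations of 0.00103, -0.00718 and -0.0156. With 3 libraries a group, this check cannot show whether same-numbered libraries were handled together. Leaving out 1 library gave 0 to 1 higher and 2 to 6 lower by level, and 0 to 2 higher and 0 to 3 lower by use. With identical pairs summed, chosen after seeing the data, 1 and 6 segments were called by level and 2 and 2 by use.

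The log2 ratio of the alpha V total was -0.47 and ranged from -0.52 to -0.42 without single libraries, that of the beta total from -0.26 to -0.07. The alpha effective number differed by -3.15 (from -3.74 to -2.60 without single libraries) but by 0.65 with subgroups summed; the beta one ranged from -0.48 to 0.42. The mean distance to Trac differed by -19.99 kb (from -24.92 to -13.47 kb without single libraries); as minus the percent of counts in the nearer part of the segments it was -1.97. The causes were not tested. The alternatives planned for J segments were not run. No call turned its direction. Fold changes that were not called and changed sign were those of use of Trav14d-3-dv8 (0.0107 with pseudogenes in the total, 0.0463 with the constant gene, -0.0892 to 0.119 without single libraries), Trav9n-4 (0.00793 with pseudogenes, 0.0505 with the constant gene, 0.0184 with limma-voom, 0.00971 with the replicate block, -0.201 to 0.124), Trbv19 (0.0496 with the constant gene), Trbv5 (0.0677 with the constant gene, -0.145 to 0.144), Trav6n-6 (-0.0669 to 0.214) and Trav13d-1 (-0.110 to 0.174), and of level of Trav4-3 (-0.213 to 0.0350), Trav13-4-dv7 (-0.0666 to 0.383) and Trbv12-2 (-0.00176 to 0.123). Low alpha counts limit what could be called for single segments.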
